A study of Danio rerio with 12 samples.

Results

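The comparison was between *apc* mutant and WT zebrafish larvae that were given vehicle and collected whole at 48 hours post fertilization (hpf). It rests on 6 of the 12 RNA-seq libraries of the study, which were chosen by their genotype and treatment labels: 3 WT and 3 apc-mcr libraries with control treatment. Both groups received 0.1% DMSO, the solvent of the rapamycin that was given at 100 nM to the larvae of the other 6 libraries. The mutants were homozygous for mcr, an allele that truncates Apc. The WT group pooled wild-type and heterozygous siblings, because the embryos were sorted at 24 hpf by how they looked. Every library came from a pool of 20 embryos, by the labels.

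Apc is a scaffold of the complex that marks beta-catenin for breakdown, so that loss of Apc leaves Wnt target genes switched on. Besides this pathway, a larva at 48 hpf is building its retina, inner ear, heart valves, fins, pharyngeal arches and connective tissue, and each of these tissues has genes that mark it. The values are from RNA of whole larvae, in which fewer cells of a tissue and less RNA per cell cannot be told apart.

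Total counts on genes were 74395349 to 77680617 in the WT libraries and 69693340 to 77584080 in the mutant libraries. Normalized counts are scaled to a library of 75043438.5 counts and are compared only within a gene. Of 25902 genes, 22335 had enough counts to be tested. Mutant libraries had 7528, 7948 and 5721 normalized counts of *apc* itself (APC, ENSDARG00000058868), and WT libraries had 9884, 9894 and 9969.7. All mutant libraries were below all WT libraries, with a log2 fold change of −0.49 (SE 0.12, adjusted p = 0.0153), short of the 2-fold used for calls below. WT replicate 2 stood apart for some genes. Where the mutant mean reached 100 normalized counts, 9 called genes had 3 counts or fewer in both other WT libraries, and all 9 had more than 3 in WT replicate 2. There the median was 5.57% of the mutant mean. For the other libraries no called gene met the same count condition, so this check could not show whether they held such counts.

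Genes are referred to as called, higher or lower, where the adjusted p was below 0.05 (edgeR quasi-likelihood test, Benjamini-Hochberg adjustment over all genes tested) and the change reached 2-fold. By this rule 905 genes were higher (4.05% of those tested) and 870 were lower (3.90%) in mutants, 7.95% together. Most changes were moderate, since 621 of the higher and 676 of the lower genes changed by less than 4-fold, and 110 rose and 51 fell by more than 8-fold. The mutant and WT libraries did not overlap for 1766 of the 1775 called genes, against 43.8% of all genes tested. The rapamycin libraries hold separate larvae of the same genotypes, but they may not be independent of the vehicle libraries. Libraries of the same replicate number deviated together across the 4 groups. Their mean correlation was 0.28 over 18 pairs, and it was −0.14 over 36 pairs of different number. The deviations were taken from each group's mean, so the second value follows largely from the first and adds little to it. In the rapamycin libraries, 1741 of the called genes could be tested. Of these, 1731 had the same sign, against 75.3% of the genes not called here, and 1067 were called in the same direction, where 5.60% of all genes were called (3.16% higher, 2.43% lower). For no gene did the difference between mutant and WT larvae depend on the treatment at an adjusted p under 0.05 by edgeR (364 of 22841 at an unadjusted p under 0.05). That fit did not use the replicate numbers, and such a result does not show that the differences were equal under both treatments.

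To see which tissues and pathways held these changes, 75 lists of genes were counted. They held 2787 of the genes tested and 381 of the 1775 called. Of 3223 list symbols written, 237 matched no gene by symbol and were left out, so a list count can miss a called gene. Each count below stands beside the 4.05% of all genes that were higher and the 3.90% that were lower, and no list was tested as a set. The lists were chosen with earlier results of these data known, so shares above those of all genes may partly reflect that choice.

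Genes of the eye were lower in mutants from the photoreceptors to the lens. Of 53 photoreceptor genes tested, 16 were called lower and 4 higher, with a median log2 fold change of −0.69. Among genes of the retinal progenitors and the pigment epithelium, 8 of 38 were lower and 1 was higher (median −0.49). The median of all genes tested was 0.00 on this scale.

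*crx* (ENSDARG00000011989), the homeobox factor that turns on photoreceptor genes, had 568, 563 and 572 normalized counts in the WT libraries and 145, 191 and 107 in the mutant libraries. All WT libraries lay far above all mutant libraries, and the log2 fold change was −1.94 (SE 0.19, adjusted p = 0.000177). Genes of rods and cones were lower as well. *rho* (ENSDARG00000002193), the rod opsin, had 1009, 1027 and 1108 in the WT libraries and 276, 494 and 382 in the mutant libraries, a log2 fold change of −1.45 (SE 0.19, adjusted p = 0.000677). *opn1lw2* (ENSDARG00000044861), a red cone opsin, had 390.1, 324 and 762 in the WT libraries and 116, 136 and 152 in the mutant libraries. WT replicate 3 was the highest of its WT libraries, and even the lowest of them lay above all mutant libraries (log2 fold change −1.87, SE 0.31, adjusted p = 0.0024). The other genes of the photoreceptor were the calcium sensor *rcvrna* (−2.23, SE 0.19), the cone transducin subunit *gngt2a* (−1.56, SE 0.16) and *prom1b*, a protein of outer segment discs (−1.88, SE 0.14). The 4 higher members were the green opsins *opn1mw1* and *opn1mw2* and the channel subunits *cnga3b* and *cngb1a*, all at low counts, and 1 of the 4 remained with at least 10 counts required in every library. For instance, *opn1mw1* had 11.6, 12.9 and 13.5 in the WT libraries and 48.8, 39.403 and 28.64 in the mutant libraries, and it lies beside near-identical copies between which reads can be split.

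The pigment epithelium recycles the chromophore of the opsins. Its isomerase *rpe65a* (ENSDARG00000007480) had 753, 1027 and 1198 normalized counts in the WT libraries and 244, 109 and 175 in the mutant libraries, and its log2 fold change was −2.50 (SE 0.28, adjusted p = 0.000317). The retinal binding protein *rlbp1b* (ENSDARG00000045808) had 697, 713 and 713 in the WT libraries and 144, 121 and 114 in the mutant libraries, with little spread inside either group (log2 fold change −2.49, SE 0.13, adjusted p = 1.08e-05). The retinol dehydrogenase *rdh5* (−1.40, SE 0.14) belongs to the same cycle. Regulators of retinal cells fell with them. *vsx1* (ENSDARG00000056292), a factor of bipolar cells, had 9763, 8637 and 9506 in the WT libraries and 2546, 3250.2 and 2186 in the mutant libraries (log2 fold change −1.81, SE 0.14, adjusted p = 4.39e-05), and *rx3*, which specifies the eye field and is also used in the hypothalamus, was at −2.37 (SE 0.21). Melanophore genes did not move as a group, with 2 of 20 lower and 1 higher. The 2 lower genes were *trpm1a*, a channel of pigment cells and bipolar cells (−2.39, SE 0.21), and *pmelb*, a protein of the pigment organelle in pigment epithelium (−1.37, SE 0.11), and the higher was *tspan36* (1.14, SE 0.11).

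In the lens, 5 of 42 genes were lower and none were higher, and 13 had an adjusted p under 0.05 with any fold, against 13.6% of all genes lower by that rule (28.4% in either direction). The beta crystallin *crybb1l3* (ENSDARG00000007655) had 541, 398 and 356 in the WT libraries and 91.0, 105 and 132 in the mutant libraries, and *grifin*, a lens galectin, was at −1.50 (SE 0.14). The gamma M crystallins form a fish-specific cluster of near-identical copies. Of 20 genes that the gene table names *crygm2*, 9 were lower, all 20 had negative values (−2.46 to −0.40), and their summed normalized counts were 316891, 215960 and 228799 in WT and 148303, 129881 and 147060 in mutant libraries. With at least 10 counts in every library required, 3 lens genes stayed lower.

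More genes of the inner ear were called lower than higher. Of 35 otic and lateral line genes, 10 were lower and 2 higher, *oc90* and the placode factor *dlx4b* (1 higher without mutant replicate 1 or mutant replicate 3). *tectb* (ENSDARG00000045268), which encodes beta-tectorin of the membrane above the hair cells, had 902, 705 and 839.7 normalized counts in the WT libraries and 59.9, 53.8 and 48.1 in the mutant libraries. Every mutant library was far below every WT library, and the log2 fold change was −3.92 (SE 0.16, adjusted p = 8.01e-06). Its partner alpha-tectorin, *tecta*, was at −1.37 (SE 0.27). *otomp* (ENSDARG00000040306), a matrix protein of otoliths, had 1419, 1324 and 1247 in the WT libraries and 219, 207 and 83.9 in the mutant libraries (log2 fold change −2.97, SE 0.29, adjusted p = 0.000156), and mutant replicate 3 was the lowest. The otolith protein starmaker, *stm*, was at −1.27 (SE 0.16), and *pou4f3*, the factor of hair cell survival, at −1.55 (SE 0.22). In contrast, *oc90* (ENSDARG00000001721), which encodes otoconin, another otolith matrix protein, had 449, 992 and 389.6 in the WT libraries and 7068, 8403 and 7004 in the mutant libraries. All mutant libraries lay above all WT libraries, of which WT replicate 2 was the highest, and the log2 fold change was 3.62 (SE 0.32, adjusted p = 9.27e-05).

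**Figure D1:**
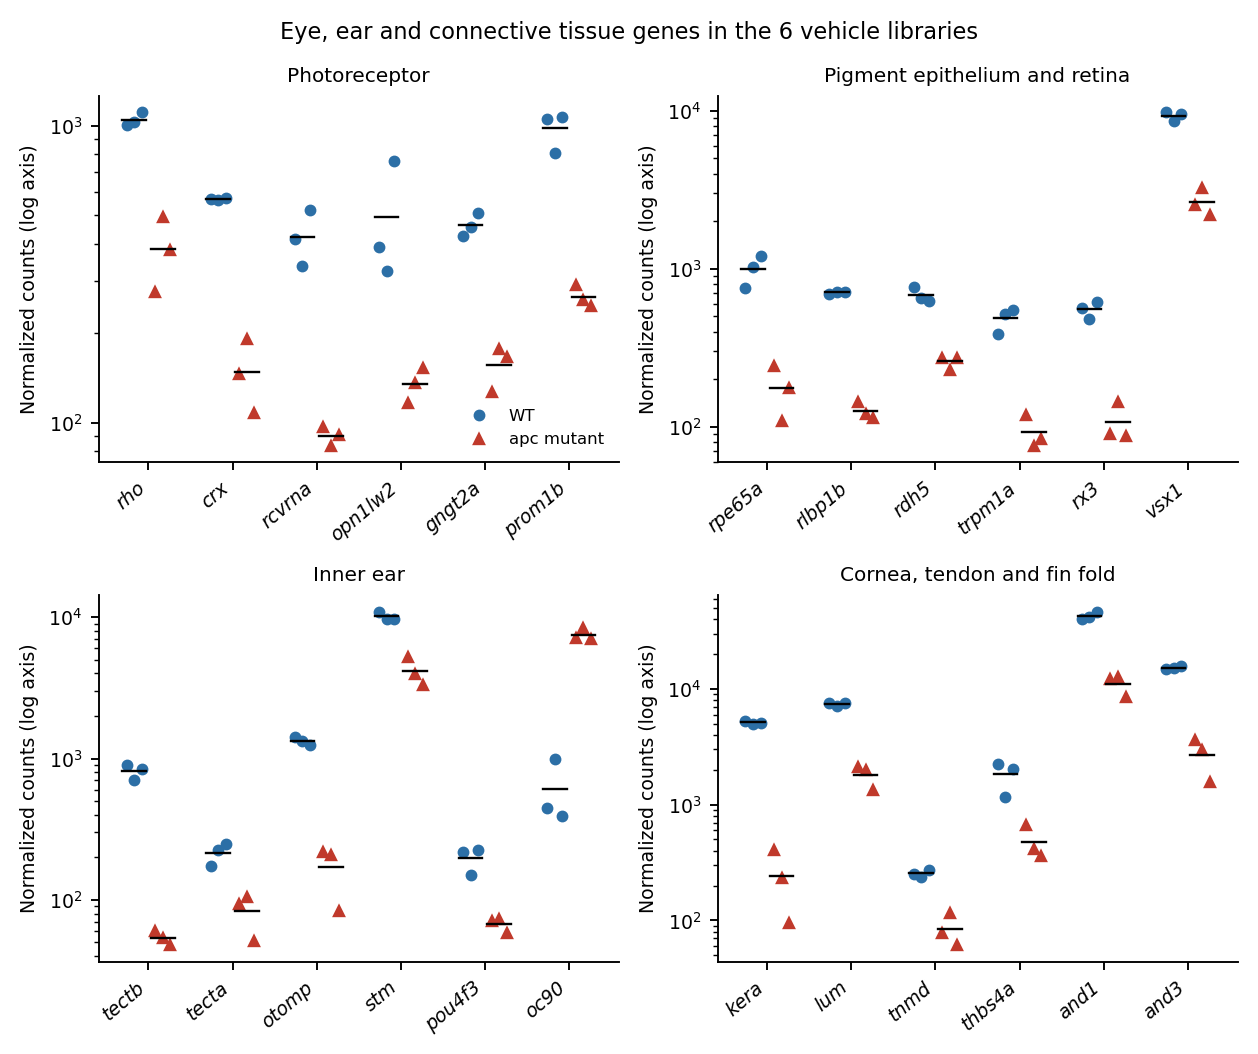
Normalized counts on a log axis in the 3 WT (circles) and 3 *apc* mutant (triangles) vehicle libraries, with black lines at the group means, for photoreceptor, pigment epithelium and retina, inner ear, and cornea, tendon and fin fold genes. The groups do not overlap for any gene shown, and *oc90* is the exception in direction, with 7004 to 8403 normalized counts in mutants and 389.6 to 992 in WT.

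Genes of connective tissue changed in both directions. Of 41 tendon and connective tissue genes, 10 were lower and 6 higher. *kera* (ENSDARG00000056938), keratocan, a small proteoglycan of the corneal stroma, had 5272, 5005 and 5119 normalized counts in the WT libraries and 403, 231 and 95.1 in the mutant libraries. The mutant libraries ranged widely, and all lay far below the WT libraries (log2 fold change −4.41, SE 0.40, adjusted p = 9.88e-05). Lumican, *lum*, a proteoglycan of the same family, was at −2.04 (SE 0.16). *tnmd* and *thbs4a*, proteins of tendons and muscle attachments, were at −1.58 (SE 0.23) and −1.93 (SE 0.28). *emilin3a* (ENSDARG00000078052), a glycoprotein of elastic fibres and the notochord sheath, had 3323, 2635 and 3367 in the WT libraries and 129, 68.2 and 69.6 in the mutant libraries (log2 fold change −5.14, SE 0.24, adjusted p = 8.01e-06). The collagen receptor *ddr2b* (ENSDARG00000058695) had 322, 314 and 358 in the WT libraries and 16.6, 9.61 and 10.23 in the mutant libraries, and its log2 fold change was −4.77 (SE 0.23, adjusted p = 8.07e-06). On the other side, *emilin2a* (ENSDARG00000061196) of the same Emilin family had 494, 645 and 453 in the WT libraries and 5471, 4362 and 5169 in the mutant libraries, a log2 fold change of 3.24 (SE 0.15, adjusted p = 8.01e-06), and the microfibril protein *mfap5* was at 1.49 (SE 0.22).

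Collagens split by type. Of 56 collagen genes tested, 20 were lower and 4 higher, with a median log2 fold change of −0.68. The 4 higher genes were all 4 tested genes of collagen VI, which forms beaded microfilaments around cells: *col6a1* (1.57, SE 0.10), *col6a2* (1.58, SE 0.09), *col6a3* (1.56, SE 0.15) and *col6a4a* (1.53, SE 0.12). *col6a1* (ENSDARG00000074908) had 7774, 9671 and 9026 in the WT libraries and 25135, 25151 and 28062 in the mutant libraries. The lower genes came from many types. All 3 tested genes of collagen VIII, a network collagen of the cornea and blood vessels, were lower, among them *col8a2* (ENSDARG00000060893) with 857, 691 and 1061 in the WT libraries and 84.3, 82.6 and 88.0 in the mutant libraries (log2 fold change −3.35, SE 0.18, adjusted p = 1.09e-05). All 3 genes of collagen VII, the anchoring fibril of the skin, were lower too, such as *col7a1* (−2.11, SE 0.32). *col17a1a* (ENSDARG00000069415), the transmembrane collagen that fixes basal keratinocytes to the basement membrane, had 14253, 14421 and 15424 in the WT libraries and 3299.7, 4776 and 2769.8 in the mutant libraries (log2 fold change −2.02, SE 0.18, adjusted p = 8.77e-05). Of 6 genes of collagen IV, the net of basement membranes, 2 were lower, *col4a3* (−2.21, SE 0.28) and *col4a4* (−2.41, SE 0.41). Without mutant replicate 1 the value of *col4a4* was −3.05. None of the 3 tested genes of collagen I, the main fibrillar collagen, reached an adjusted p under 0.05 or a 2-fold change. Their median was −0.47, and mutant and WT libraries overlapped for all 3.

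**Figure D2:**
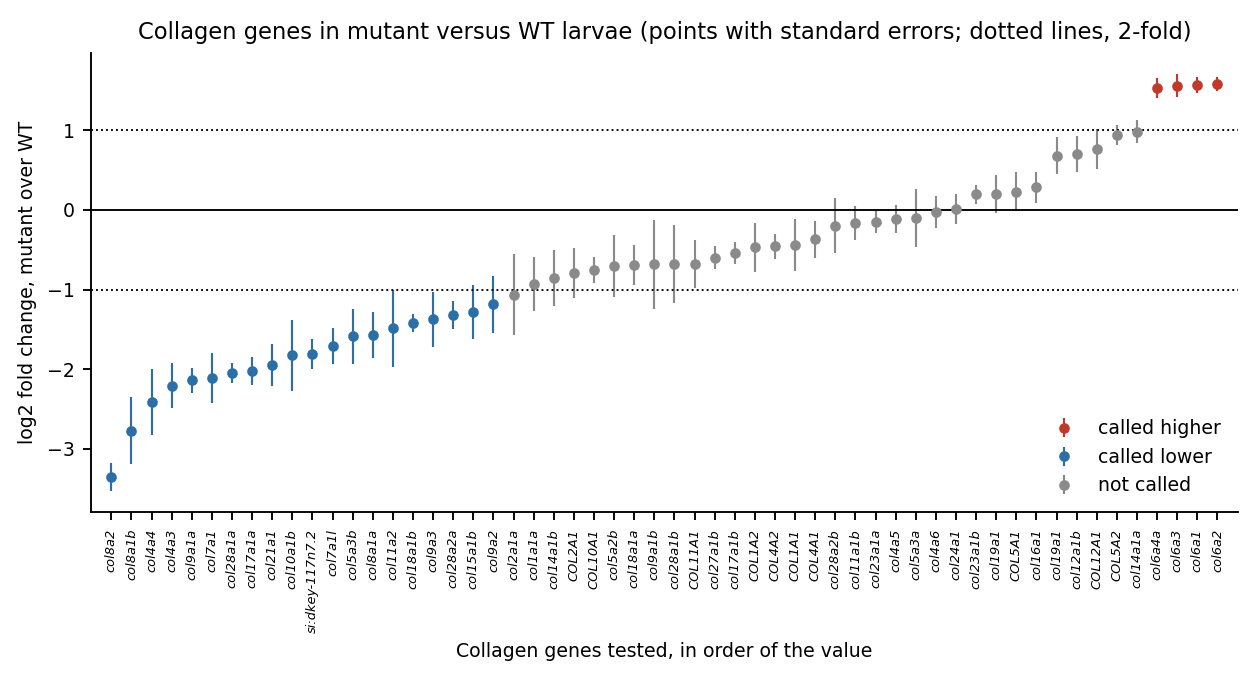
Log2 fold changes of mutant over WT (vertical axis, with standard errors) for the 56 collagen genes tested, in order of the value. The 20 genes called lower are blue, the 4 called higher are red and are the 4 collagen VI genes, and dotted lines mark 2-fold.

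In the fin fold list, 6 of 20 genes were higher and 3 lower. All 3 actinodin genes tested, which encode the rods that stiffen the larval fin fold, were lower. *and1* (ENSDARG00000088514) had 40351, 42128 and 46509 normalized counts in the WT libraries and 12164, 12586 and 8475 in the mutant libraries and *and3* (ENSDARG00000056873) had 14860.0, 15239 and 15739 in the WT libraries and 3618, 2951 and 1561 in the mutant libraries, and mutant replicate 3 was the lowest for both (log2 fold changes −1.96 (SE 0.15) and −2.50 (SE 0.26)). Among the 6 higher genes were *msx2b* (1.96, SE 0.13), a homeobox factor of the fin fold, the basement membrane proteins *frem1a* (1.83, SE 0.10) and *hmcn1* (1.31, SE 0.20), and the pectoral fin ligand *fgf24* (1.56, SE 0.14). Of 38 keratinocyte genes matched by symbol, 3 were higher and none lower. The higher ones were *krt97* (1.28, SE 0.19), *krt18b* (1.27, SE 0.13) and *cdh1*, E-cadherin (1.24, SE 0.07), and without mutant replicate 2 their count was 5. The list as written also names *krtt1c19e*, which was not matched and was called lower, as given below. Of 18 genes grouped by the symbol letters krt, 4 were lower and 2 higher. Keratins outside the keratinocyte list that fell include *krt1-19d* (ENSDARG00000023082) with 3260.1, 2860.3 and 3339 in the WT libraries and 393, 299 and 174 in the mutant libraries (log2 fold change −3.45, SE 0.25, adjusted p = 3.01e-05) and *krt1-c5* (−1.80, SE 0.22). An expanded fish family of membrane proteins, Ms4a17a, was higher in 7 of 11 tested genes, and their summed normalized counts were 2885, 3981 and 3199 in WT and 12297, 13323 and 13083 in mutant libraries. Reads can be split between such related copies.

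Notochord genes changed in both directions. Of 26 tested, 7 were lower and 3 higher. *noto* (ENSDARG00000021201), a homeobox factor of the early notochord, had 45.5, 50.4 and 27.9 normalized counts in the WT libraries and 261, 279.7 and 309.9 in the mutant libraries (log2 fold change 2.78, SE 0.23, adjusted p = 6.28e-05). *ntd5*, a gene that depends on the notochord factor Ntl, was at 1.22 (SE 0.09). Several matrix and sheath genes were lower, and whole larvae do not show whether this was in the notochord or in other tissue such as cartilage. *matn4* (ENSDARG00000015947), a matrilin, had 37829.6, 33041 and 38319.8 in the WT libraries and 11056, 9964 and 9750.4 in the mutant libraries (log2 fold change −1.83, SE 0.09, adjusted p = 9.19e-06). *entpd5a* (ENSDARG00000053481), which marks the mineralizing segments of the sheath, had 240.1, 303 and 350.1 in the WT libraries and 37.7, 63.4 and 32.7 in the mutant libraries (log2 fold change −2.73, SE 0.27, adjusted p = 0.00017), and chondromodulin, *lect1*, was at −1.64 (SE 0.12).

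Some genes used in early and posterior mesoderm were higher. In the list of muscle progenitors and their mesoderm 4 of 29 were higher and 3 lower, with a median of −0.02. *tbx16* (ENSDARG00000007329), a T-box factor of mesoderm leaving the tailbud, had 22.3, 50.4 and 28.9 normalized counts in the WT libraries and 283, 159.5 and 343 in the mutant libraries, and its log2 fold change was 2.95 (SE 0.37, adjusted p = 0.000575). *myf5* (ENSDARG00000007277), a determination factor of muscle precursors, had 261, 314 and 269 in the WT libraries and 843, 799 and 1123 in the mutant libraries (log2 fold change 1.71, SE 0.16, adjusted p = 0.000107). *eve1* (ENSDARG00000056012), a posterior homeobox gene, had 73.6, 99.9 and 85.6 in the WT libraries and 276, 294 and 289 in the mutant libraries, and the spread in mutants was small (log2 fold change 1.73, SE 0.17, adjusted p = 0.000144). *msgn1*, a target of Tbx16 and Wnt signals in the presomitic mesoderm, and the tail factor *cdx4* had low counts and were also called, at 1.98 (SE 0.35) and 1.39 (SE 0.27). Of 51 genes in the list of Hox and related genes, 3 were higher, *eve1*, *cdx4* and the most posterior *hoxd13a* (1.43, SE 0.13), and none were lower. Later steps of muscle differed, with the fusion protein *mymk* at −1.24 (SE 0.15) and the somite factor *meox2b* at −1.35 (SE 0.16).

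Fast muscle genes were lower by small folds. Of 69 fast muscle genes, 4 were called lower and 1 higher, but 27 had a lower level at an adjusted p under 0.05 with any fold and 5 a higher level (median −0.27). By that rule 13.6% of all genes were lower and 14.8% higher. The abundant larval myosin *myhz1.1* (ENSDARG00000067990) had 1754120.0, 1462850.0 and 1432950.0 in the WT libraries and 1449390.0, 1191670.0 and 1188940.0 in the mutant libraries, groups that overlapped, and it was not called (log2 fold change −0.28, SE 0.11, adjusted p = 0.0982). A few genes fell further, such as the myosin *myhb* (ENSDARG00000001993) with 833, 862 and 983 in the WT libraries and 121, 125 and 103 in the mutant libraries (log2 fold change −2.94, SE 0.14, adjusted p = 8.01e-06), the fast troponin *tnni2b.2* (−1.37, SE 0.09) and the calcium pump *atp2a1l* (−1.11, SE 0.11). *desma* (ENSDARG00000058656), the intermediate filament of muscle, was higher, with 27259, 27126 and 26689 in the WT libraries and 63091, 53215 and 68042 in the mutant libraries (log2 fold change 1.19, SE 0.10, adjusted p = 6.61e-05). *tcap* (ENSDARG00000007344), telethonin of the Z-disc, which is used in heart and skeletal muscle, had 172, 527 and 165 in the WT libraries and 3702, 4877 and 6091 in the mutant libraries. WT replicate 2 was the highest WT library, and the log2 fold change was 4.09 (SE 0.44, adjusted p = 0.000241) with it and 4.86 without it.

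Some genes of the heart valve list were higher, and a few heart muscle genes were called in both directions. Of 35 endocardial and valve genes, 7 were higher and 1 lower (0 lower without WT replicate 3 and 2 without mutant replicate 2). *has2* (ENSDARG00000036987), the hyaluronan synthase that swells the cardiac jelly of the cushions, had 179, 199 and 240.5 normalized counts in the WT libraries and 731, 677 and 1073 in the mutant libraries (log2 fold change 2.004, SE 0.20, adjusted p = 0.000174). The fibronectin gene *fn1b* (ENSDARG00000006526) had 12742, 17547 and 14767 in the WT libraries and 70299.5, 85818 and 73252 in the mutant libraries (log2 fold change 2.35, SE 0.13, adjusted p = 1.26e-05), and its copy *fn1a* was at 1.85 (SE 0.19). *bmp2b*, which induces cushion formation, was at 1.72 (SE 0.12), and *fibinb*, a secreted protein first found in fin buds, at 2.61 (SE 0.19). These genes are also used in fins, fin folds and mesenchyme, and the libraries do not separate the tissues. Among 32 cardiomyocyte genes matched by symbol, 3 were lower, 2 were higher and 27 were not called. At an adjusted p under 0.05 with any fold, 12 were lower and 3 higher, against 13.6% and 14.8% of all genes. The list as written names *tcap*, *desma* and *nkx2.7*, all called higher, so the count of 2 does not hold every written member. The mitochondrial creatine kinase *ckmt2a* (ENSDARG00000069615) had 1723, 1266 and 1656 in the WT libraries and 128, 137 and 125 in the mutant libraries (log2 fold change −3.57, SE 0.15, adjusted p = 8.01e-06) and the cardiac troponin *tnnc1a* was at −1.14 (SE 0.16). The cardiac progenitor factor *nkx2.7* was higher (2.65, SE 0.26). Of the paired ankyrin repeat genes of stressed and stretched muscle, *ankrd1b* (ENSDARG00000076192) fell, with 2417, 2764 and 2629.7 in the WT libraries and 194, 151 and 168 in the mutant libraries (log2 fold change −3.93, SE 0.12, adjusted p = 3.86e-06), while *ankrd1a* rose (1.44, SE 0.28, adjusted p = 0.0052).

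Neural genes fell widely but by small folds. Of 65 genes of neurons, only 3 passed the 2-fold minimum, all lower, whereas 38 were lower and 0 higher at an adjusted p under 0.05 with any fold, against 13.6% lower and 14.8% higher of all genes. Their median log2 fold change was −0.47. Transmitter genes were alike, with 23 of 44 lower with any fold, none higher and a median of −0.45. The syntaxin binding protein *stxbp1b* (ENSDARG00000056036), part of the release machinery, had 989, 678 and 1015 in the WT libraries and 387, 313 and 316 in the mutant libraries (log2 fold change −1.40, SE 0.17, adjusted p = 0.000544). The vesicular glutamate transporter *slc17a7a* was at −1.58 (SE 0.28), and *neurod1* (ENSDARG00000019566), a proneural factor of brain, retina and endocrine pancreas, had 10519, 9804 and 10268 in the WT libraries and 4907, 5088 and 4066 in the mutant libraries (log2 fold change −1.12, SE 0.10, adjusted p = 8.65e-05). The pan-neuronal RNA binding protein ELAVL3 was at −0.24 (SE 0.13) and was not called.

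Within the brain, single regions and peptides moved more. Of 55 forebrain genes, 5 were lower, such as *neurod6a* (−1.49, SE 0.14) and *neurod6b* (−1.07, SE 0.09) of excitatory neurons and *lhx6* (−1.27, SE 0.12) of interneurons. The 2 higher were *zic2a* (1.21, SE 0.10) and *zic2b* (ENSDARG00000037178), dorsal midline factors, the latter with 1251, 1665 and 1339.9 in the WT libraries and 5215, 6009 and 5601 in the mutant libraries (log2 fold change 1.98, SE 0.12, adjusted p = 1.51e-05). The radial glia fatty acid binding protein *fabp7a* (ENSDARG00000007697) had 51096, 46969 and 47884 in the WT libraries and 22428, 21818 and 23313 in the mutant libraries (log2 fold change −1.11, SE 0.08, adjusted p = 2.69e-05), and *olig1* of the oligodendrocyte lineage was at −1.25 (SE 0.23). Neuropeptides went both ways, with oxytocin, *oxt*, at −1.71 (SE 0.23), thyrotropin-releasing hormone, *trh*, at 2.13 (SE 0.37) and *gnrh2* at 2.16 (SE 0.46). Of 43 midbrain and hindbrain patterning genes 1 was called, *her11* (1.45, SE 0.28). The counts were 3 higher without WT replicate 2, 2 higher and 2 lower without mutant replicate 2, 2 higher without mutant replicate 3, and 1 lower in the fit with the replicate block.

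Markers of the thyroid, interrenal gland, thymus and intestine were among the lower genes. Of the pancreas lists, 2 of 19 endocrine genes were lower (1 without WT replicate 3 or mutant replicate 2), and none of 10 exocrine genes was called (1 lower without WT replicate 1, mutant replicate 2 or mutant replicate 3). *tg* (ENSDARG00000020084), thyroglobulin, the hormone precursor of the thyroid follicle, had 356, 331 and 372 normalized counts in the WT libraries and 59.9, 116 and 51.1 in the mutant libraries (log2 fold change −2.21, SE 0.28, adjusted p = 0.000608). In the thyroid and interrenal list 4 of 19 genes were lower and none higher, and the adrenal-type factor *nr0b1* was at −1.25 (SE 0.25). In the lymphoid and thymus list 3 of 12 genes were lower (5 without mutant replicate 2) and 1 was higher (0 without WT replicate 1, WT replicate 3, mutant replicate 1 or mutant replicate 3). The thymus depends on *foxn1*, the factor of its epithelium, and on the chemokine *ccl25b*, which draws progenitors in. *ccl25b* (ENSDARG00000070873) had 909.9, 876 and 989 in the WT libraries and 159.8, 181 and 74.7 in the mutant libraries (log2 fold change −2.74, SE 0.27, adjusted p = 0.000156), and *foxn1* (ENSDARG00000011879) had 249.7, 234 and 209.7 in the WT libraries and 119.8, 53.8 and 59.3 in the mutant libraries (log2 fold change −1.58, SE 0.29, adjusted p = 0.00423). In the intestine 3 of 16 genes were lower and none higher, among them *vil1*, villin of the brush border (−1.42, SE 0.32). This count was 1 without WT replicate 3 or mutant replicate 3. The lowest value of the intestine list (−1.53) belongs to a gene that the endothelial list also holds.

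Liver genes changed in both directions. Of 32 hepatocyte genes, 3 were higher and 3 lower (5 lower with upper-quartile size factors). The urate oxidase *uox* (ENSDARG00000007024) had 225, 252 and 418 normalized counts in the WT libraries and 52.1, 37.5 and 46.03 in the mutant libraries (log2 fold change −2.72, SE 0.28, adjusted p = 0.0002), and the liver fatty acid binding protein *fabp10a* was at −1.78 (SE 0.30). The bile acid receptor *nr1h4* was at −2.28 (SE 0.30), and the sterol hydroxylase *cyp8b1* (ENSDARG00000053068) had 58.1, 77.1 and 84.6 in the WT libraries and 0.00, 2.88 and 8.18 in the mutant libraries. Its log2 fold change was −4.24 (SE 0.61, adjusted p = 0.00115), and −5.47 without mutant replicate 3. The higher genes were plasma proteins of stress and complement. *agt* (ENSDARG00000016412), angiotensinogen, had 673, 767 and 652 in the WT libraries and 2236, 2598 and 4478 in the mutant libraries (log2 fold change 2.15, SE 0.24, adjusted p = 0.000295), and complement factor B, *cfb*, was at 1.68 (SE 0.11). Transferrin, *tfa*, an abundant hepatocyte product, was at −0.63 (SE 0.11) and was not called. In the acute phase and iron list 6 of 28 genes were higher and 3 lower, with a median of 0.59. The lower ones included the pentraxins *crp2* (−1.25, SE 0.14) and *crp3* (−1.38, SE 0.20). Of 29 complement genes besides *c3*, 9 were higher and 4 lower. That lower count was 2 without WT replicate 1, WT replicate 2, WT replicate 3 or mutant replicate 3. Of 39 yolk and lipoprotein genes, 2 were higher, *lcat* (1.88, SE 0.11) and lipoprotein lipase, *lpl* (1.26, SE 0.11), and 1 was lower, *nr1h4* (2 lower without mutant replicate 2 and in the fit with the replicate block). The median of this list was −0.25.

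Erythroid, hatching gland and germ cell lists had few or no called genes. In the blood, 1 of 44 erythroid genes was called, *runx1* of blood stem cells at low counts (2.67, SE 0.57), which could not be tested with at least 10 counts required in every library. The embryonic globin *hbae1.1* had 8117, 13862 and 6823 in the WT libraries and 6298, 12411 and 6536 in the mutant libraries, groups that overlapped (log2 fold change −0.19, SE 0.31, adjusted p = 0.705, and 0.18 without WT replicate 2). No gene was called among 9 of the hatching gland and 16 of germ cells. Both lists gained 1 higher gene without mutant replicate 2. Endothelial genes were called in both directions, 4 higher and 3 lower of 43, and the lower count was 1 without WT replicate 2, WT replicate 3 or mutant replicate 3.

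Mesenchyme of the pharyngeal arches, which forms jaw, gill and face tissue, held changes in both directions beyond its cartilage. Of 40 genes, 7 were lower and 5 higher (3 higher without mutant replicate 3). *barx1* (ENSDARG00000007407), a homeobox factor of arch mesenchyme and teeth, had 1657, 1558 and 1726 normalized counts in the WT libraries and 430.5, 370.0 and 309.9 in the mutant libraries (log2 fold change −2.15, SE 0.13, adjusted p = 1.52e-05). The forkhead factors *foxf2a* (−1.61, SE 0.14), *foxf1* (−1.16, SE 0.14) and *foxc1b* (−1.20, SE 0.16) and the homeobox gene *six2a* (−1.54, SE 0.09) were lower too. *six2a* (ENSDARG00000058004) had 1609.7, 1721 and 1782 in the WT libraries and 599, 579.5 and 574 in the mutant libraries. The endothelin receptor *ednrab* (1.83, SE 0.31) and *msx1b* (1.47, SE 0.11) were higher.

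Genes of the immediate early response were often higher. Of 50 such genes, 19 were higher and 2 lower. AP-1 is a pair of Jun and Fos proteins that turns on genes after growth signals, injury or stress. *junba* (ENSDARG00000074378) had 329, 458 and 238 normalized counts in the WT libraries and 3081, 3264 and 4031 in the mutant libraries (log2 fold change 3.34, SE 0.22, adjusted p = 2.27e-05). *fosl1a* (ENSDARG00000015355) had 60.0, 101 and 70.22 in the WT libraries and 690.1, 638 and 711 in the mutant libraries (log2 fold change 3.14, SE 0.19, adjusted p = 1.61e-05). *fosl2* was at 3.08 (SE 0.20) and *atf3* (ENSDARG00000007823), a stress factor that pairs with Jun, had 249.7, 393 and 239 in the WT libraries and 2060.3, 2271 and 2258 in the mutant libraries (log2 fold change 2.90, SE 0.18, adjusted p = 1.84e-05). WT replicate 2 was the highest WT library for all of these, and below every mutant library. The 2 lower members were *npas4a* of active neurons and *klf11a* (−1.21, SE 0.08), and that count was 4 without mutant replicate 2, 2 without WT replicate 3 and 1 without any other library.

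Genes of inflammation and the interferon response rose with them. Of 49 myeloid genes 9 were higher, among them *mmp9* (ENSDARG00000042816), a gelatinase of neutrophils and wounds, with 387, 586 and 462 normalized counts in the WT libraries and 2515, 2085 and 2989 in the mutant libraries (log2 fold change 2.403, SE 0.18, adjusted p = 3.61e-05). The prostaglandin synthase *ptgs2b* was at 1.67 (SE 0.27) and *mpeg1.2*, a perforin of macrophages, at 2.45 (SE 0.32). The 2 lower members, the complement C1q chains *c1qb* and *c1qc* of macrophages, lost at least 1 of their 2 calls whichever library was left out, and both without WT replicate 1, WT replicate 2, WT replicate 3 or mutant replicate 3. In the signal path below interleukin 6 type receptors, the shared receptor *il6st* (ENSDARG00000104693) had 895, 1042 and 820.5 in the WT libraries and 4045, 4044 and 3054 in the mutant libraries (log2 fold change 2.01, SE 0.14, adjusted p = 2.46e-05) and *stat3* was at 1.68 (SE 0.14). Of 38 interferon and antigen presentation genes, 8 were higher and none lower. *irf9* (ENSDARG00000016457), which carries the interferon signal to DNA, had 439, 523 and 419 in the WT libraries and 1787, 1953 and 1939 in the mutant libraries (log2 fold change 2.04, SE 0.11, adjusted p = 1.11e-05), *irf3* and *irf7* were at 2.08 (SE 0.23) and 1.25 (SE 0.17), and the ubiquitin-like *isg15* was at 3.04 (SE 0.41).

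Some genes of cell death and the p53 response were also higher. In the apoptosis list 5 of 30 were higher, 14 with any fold, and none lower in either count. With upper-quartile size factors the count was 3. *bmf2* (ENSDARG00000041414), a sensor that starts the mitochondrial pathway, had 33.9, 36.6 and 34.6 normalized counts in the WT libraries and 223, 206 and 275 in the mutant libraries (log2 fold change 2.74, SE 0.20, adjusted p = 3.16e-05). The death receptor *tnfrsf1a* was at 1.9997 (SE 0.09). Of 37 genes of the p53 response 4 were called higher and none lower. With any fold 13 were higher and 4 lower, against 14.8% and 13.6% of all genes. The called ones included *baxb* (1.41, SE 0.16), an effector of the mitochondrial pathway, and *gadd45ab* (1.66, SE 0.15), which slows the cycle after damage.

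Proteases that cut the matrix, and their inhibitors, were often higher. Of 69 such genes 20 were higher and 5 lower. The tissue plasminogen activator *plat* (ENSDARG00000062707), which starts the lysis of clots, had 303, 377 and 345 normalized counts in the WT libraries and 1524, 1852 and 2068 in the mutant libraries (log2 fold change 2.41, SE 0.14, adjusted p = 1.33e-05). The thrombin receptor *f2r* (ENSDARG00000060012) had 168, 182 and 136 in the WT libraries and 1480.1, 1599 and 1961 in the mutant libraries (log2 fold change 3.37, SE 0.16, adjusted p = 8.01e-06), and tissue factor, *f3b*, which starts clotting, was at 1.61 (SE 0.16). In the coagulation list 7 of 37 were higher and 1 was lower, *vwf*, whose call was lost without WT replicate 1. Of the metalloprotease group, the membrane-bound *mmp14b* was at 1.33 (SE 0.12), *adamts15a* at 2.09998 (SE 0.10) and their inhibitor *timp2b* at 3.16 (SE 0.22). The serine protease *htra1b* was at 3.40 (SE 0.20). Lower members included *adamts12* (−1.26, SE 0.21) and *adamtsl7* (−1.75, SE 0.16). The lysosomal cathepsin *ctsla* (ENSDARG00000007836) had the largest rise in counts of all called genes, with 53364, 43992 and 36859 in the WT libraries and 130479, 109066 and 154412 in the mutant libraries (log2 fold change 1.55, SE 0.16, adjusted p = 0.000211).

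**Figure D3:**
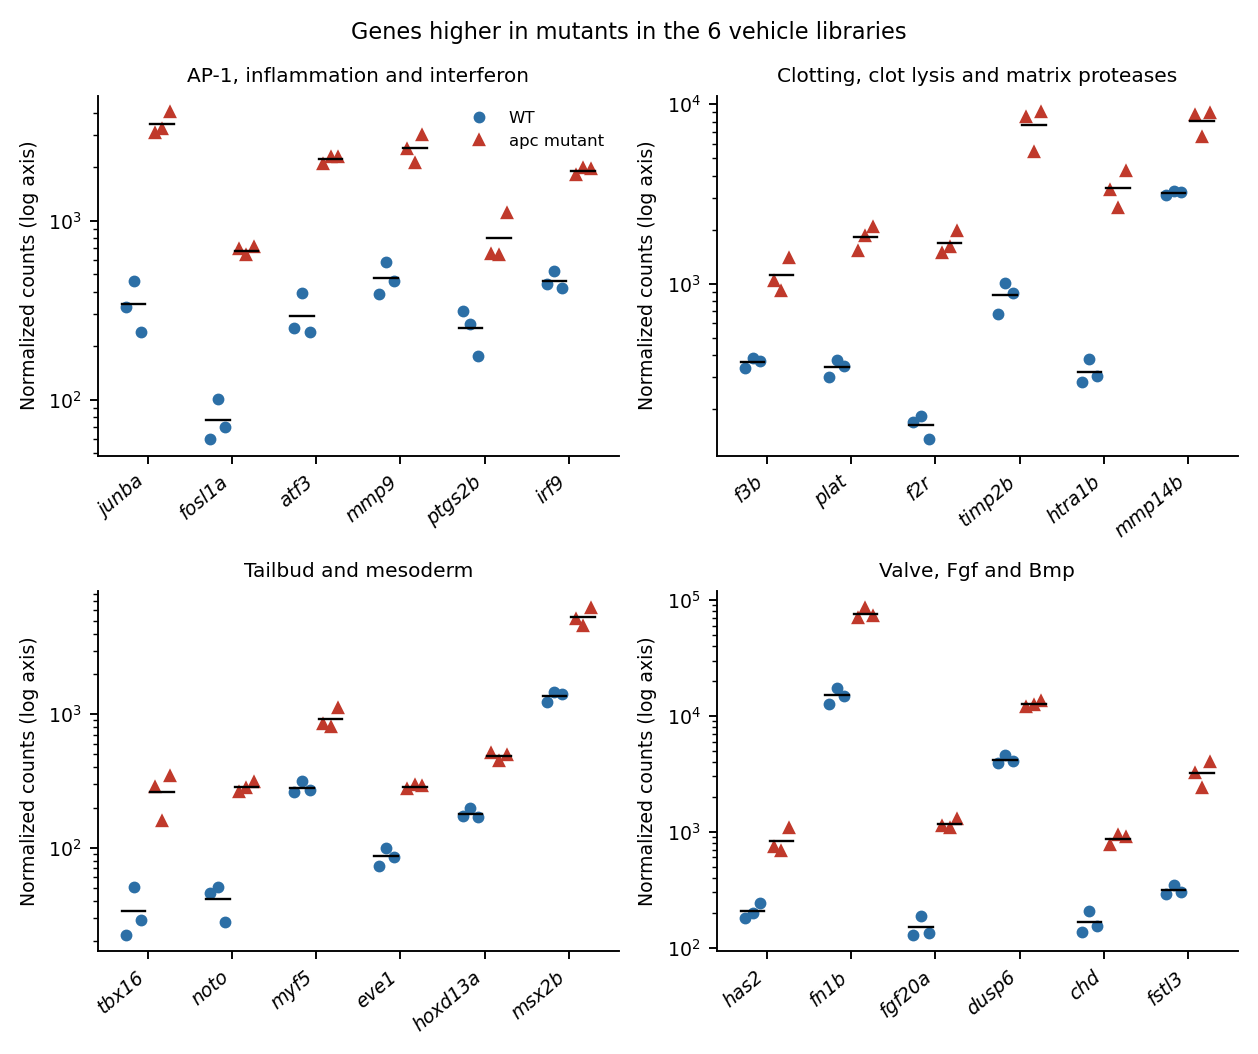
Normalized counts on a log axis in the 3 WT (circles) and 3 *apc* mutant (triangles) vehicle libraries, with black lines at the group means, for genes of AP-1, inflammation and interferon, of clotting, clot lysis and matrix proteases, of the tailbud and mesoderm, and of valve, Fgf and Bmp signalling. Every mutant library lies above every WT library for each gene. Examples are *mmp14b*, at 6581 to 8930 in mutants and 3115 to 3263 in WT, and *fosl1a*, at 638 to 711 and 60.0 to 101.

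Secreted signals of the Fgf and Bmp families, and their antagonists, were often higher. Of 53 Fgf genes 12 were higher and 4 lower (2 lower without mutant replicate 3). *fgf20a* (ENSDARG00000007356), a ligand of fin outgrowth, had 129, 189 and 133 normalized counts in the WT libraries and 1119, 1073 and 1286 in the mutant libraries (log2 fold change 2.95, SE 0.17, adjusted p = 1.26e-05). *fgf10a* (2.15, SE 0.15) and *fgf3* (1.63, SE 0.12), ligands of limb, ear and pharynx, were higher as well. *dusp6* (ENSDARG00000070914), a phosphatase that Fgf signalling induces against itself, had 3934, 4600.4 and 4042 in the WT libraries and 11975, 12392 and 13497 in the mutant libraries (log2 fold change 1.59, SE 0.09, adjusted p = 1.33e-05). Of 79 Bmp and Tgf-beta genes, 18 were higher and 6 lower. Of the higher ones, *chd*, *fsta*, *fstb*, *fstl3*, *grem1b*, *nog2* and *sostdc1b* encode proteins that bind or block ligands. *chd* (ENSDARG00000006110), chordin, had 136, 207 and 152 in the WT libraries and 774, 934 and 908 in the mutant libraries (log2 fold change 2.402, SE 0.17, adjusted p = 3.01e-05). *fstl3* (ENSDARG00000025670), a follistatin-like protein that binds activin, had 288, 344 and 301 in the WT libraries and 3234, 2372 and 3974 in the mutant libraries (log2 fold change 3.36, SE 0.19, adjusted p = 1.21e-05), and *grem1b*, *sostdc1b* and *fstb* were at 2.34 (SE 0.27), 2.06 (SE 0.15) and 1.91 (SE 0.10). *bmper*, which binds Bmps outside the cell, was lower (−1.25, SE 0.08). Notch and Hedgehog lists held 1 and 0 higher and 0 and 1 lower genes of 37 and 26, the Notch ligand *jag2a* (1.28, SE 0.15) and *foxf1*. The Hedgehog list had 1 higher gene without WT replicate 1, without mutant replicate 3 and in the fit with the replicate block.

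Genes of ribosomes and protein synthesis moved mostly by folds below the 2-fold rule. All 91 genes of ribosome biogenesis had positive log2 fold changes, from 0.07 to 0.90 with a median of 0.52, and 85 of them had an adjusted p under 0.05, against 14.8% of all genes that were higher by that rule. *npm1a* (ENSDARG00000014329), nucleophosmin of the nucleolus, had 12081, 13681 and 12396 normalized counts in the WT libraries and 22337, 19806 and 23394 in the mutant libraries (log2 fold change 0.78, SE 0.09, adjusted p = 0.000435). Among 85 cytoplasmic ribosomal proteins 72 were higher with any fold and none lower, with a median of 0.32. Of 58 genes of Atf4 and the amino acid stress response, 40 were higher and 1 lower with any fold, and by the 2-fold rule 7 were higher and 1 lower, *stc2b*. The higher ones included *atf5b* (1.89, SE 0.13) and *sesn2* (1.21, SE 0.13). With upper-quartile size factors the median of all genes moved to −0.07.

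Cell cycle genes were lower by small folds. Of 50 DNA replication genes 18 and of 45 mitosis genes 20 were lower with any fold, none were higher, and the medians were −0.29 and −0.26. At an adjusted p under 0.05 with any fold, 13.6% of all genes were lower and 14.8% higher. The helicase subunit MCM2 had 10980.5, 12968 and 11724 in the WT libraries and 8579, 10002 and 8315 in the mutant libraries (log2 fold change −0.41, SE 0.10, adjusted p = 0.0162). None of these 95 genes was called. Splicing factors, with 2 higher and 9 lower of 115 with any fold, and the nuclear genes of the respiratory chain, with 0 higher and 2 lower of 83, had medians of −0.05 and 0.00.

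**Figure D4:**
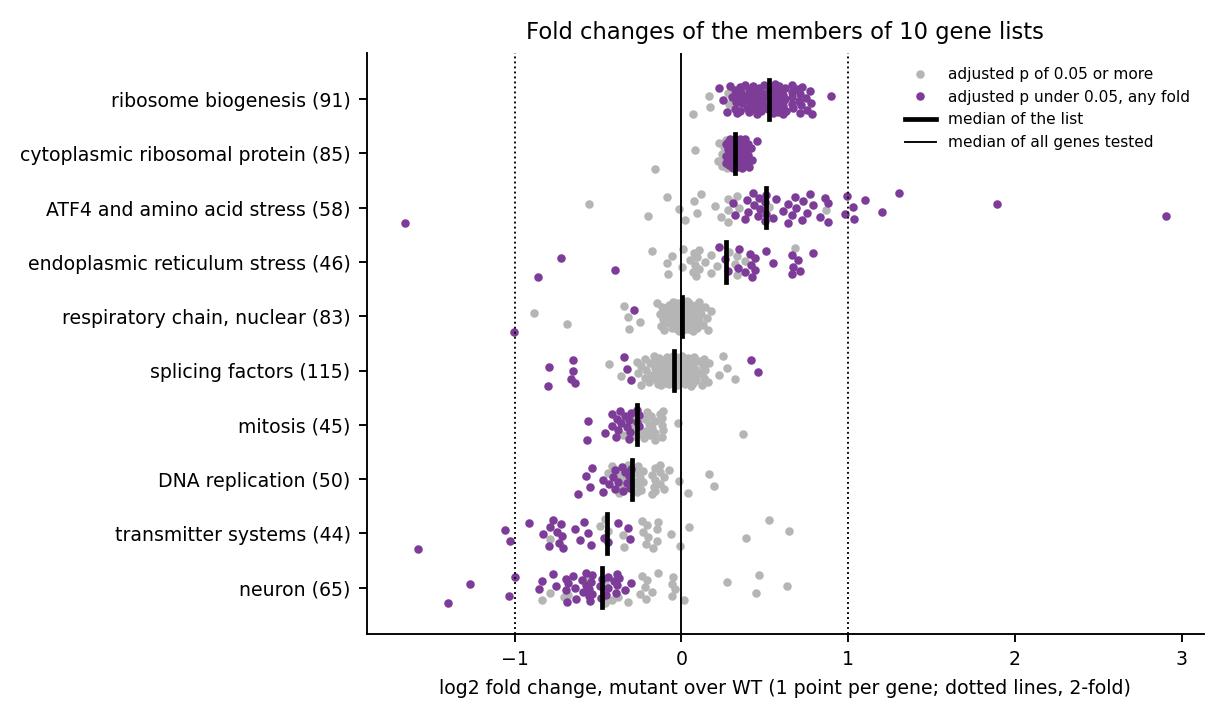
Log2 fold changes of mutant over WT for each member of 10 lists (1 point per gene, purple at an adjusted p under 0.05 and grey otherwise, a thick bar at the list's median, the number of genes in parentheses). Ribosome biogenesis lies wholly above 0 around 0.52, neuron genes centre on −0.47, and respiratory chain genes centre on 0.

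Hormone and nutrient metabolism changed at defined steps. *cyp24a1* (ENSDARG00000103277), which breaks down active vitamin D and is induced by it, had 393, 558 and 439.6 normalized counts in the WT libraries and 4216, 4004 and 5374 in the mutant libraries (log2 fold change 3.29, SE 0.16, adjusted p = 8.07e-06), while *cyp2r1*, which makes the circulating form, was at −1.52 (SE 0.21). *pth1a* (ENSDARG00000093738), a parathyroid hormone that raises blood calcium, had 4.84, 17.8 and 9.62 in the WT libraries and 371, 311 and 452 in the mutant libraries (log2 fold change 5.12, SE 0.35, adjusted p = 2.32e-05). The cytokine *tnfsf11* (ENSDARG00000068141), which drives osteoclasts in mammals, had 15.5, 33.6 and 13.5 in the WT libraries and 524, 352 and 655 in the mutant libraries (log2 fold change 4.61, SE 0.36, adjusted p = 4.39e-05). In the retinoic acid pathway the synthesis enzyme *aldh1a2* (ENSDARG00000053493) rose, with 4101, 4457 and 4178 in the WT libraries and 13412, 10172 and 13591 in the mutant libraries (log2 fold change 1.55, SE 0.12, adjusted p = 4.24e-05). Of 51 genes of this pathway 3 were higher and 8 lower, the lower ones including the retinol binding protein *rbp2b* (−1.67, SE 0.12). Of 41 cytochrome P450 genes 7 were lower and 1 higher (2 higher without mutant replicate 1 or mutant replicate 2, 4 lower with at least 10 counts required in every library). *igfbp1a* (ENSDARG00000099351), a binding protein that restrains insulin-like growth factors under fasting or low oxygen, had 1009.6, 1303 and 929 in the WT libraries and 12959, 10459 and 15038 in the mutant libraries (log2 fold change 3.57, SE 0.17, adjusted p = 8.07e-06). It belongs to the hypoxia list, in which 7 of 42 were higher and 1 lower (2 lower without WT replicate 2 or mutant replicate 1). Glycolysis enzymes did not follow as a group, with 2 of 56 higher (1 without WT replicate 3) and 2 lower (1 without mutant replicate 3), among them hexokinase *hk2* (1.18, SE 0.13) and the glucose transporter *slc2a1a* (−1.28, SE 0.20).

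The counts above could be read against position, since homozygous mutants share the chromosome segment around *apc*. Places were counted over tested genes alone, by their order in the RefSeq table of assembly GRCz12tu. Within 50 places of *apc* lay 77 genes, because on the shorter side the chromosome ended before 50 places. Of these, 3 (3.90%) were called: *zdhhc8a* (−1.42, SE 0.19), *setd9* (−1.11, SE 0.19) and *il6st* (2.01, SE 0.14). Farther out, 51 to 200 places away and all on the longer side, 14 of 150 genes (9.33%) were called, 12 of them lower. On the rest of chromosome 10 the share was 8.51%, over all placed genes 7.79%, and on the other chromosomes it ran from 6.67% to 10.24%. By direction, 8% of the genes 51 to 200 places away were lower and 1.33% higher, against 3.63% and 4.17% of all placed genes. On the rest of chromosome 10, 4.96% were lower and 3.55% higher. Over the whole of chromosome 10 the lower share was 5.49%, the highest of any chromosome, with chromosome 9 next at 5.23%. Whether the skew toward lower genes depends on position was not tested.

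Among called genes, the largest fall in counts was of the keratin *krtt1c19e* (ENSDARG00000090268), which had 277370.0, 220196 and 299126 normalized counts in the WT libraries and 138201, 114569 and 125461 in the mutant libraries. Its log2 fold change was −1.07 (SE 0.12, adjusted p = 0.000378), and without WT replicate 3 it was −0.98 and not called. The keratinocyte list held it only under this symbol, which the gene table used for the lists replaces by another, so it is not among the 38 counted above. Large falls were also seen in *si:dkey-183i3.5* (ENSDARG00000056248) and *zgc:136930* (ENSDARG00000055192), which the files give no role. The former had 27060.1, 28514 and 40215 normalized counts in the WT libraries and 1112, 2305 and 809 in the mutant libraries, and the latter had 25054, 26179.7 and 33962 in the WT libraries and 1732, 2197 and 801 in the mutant libraries. Mutant replicate 3 was the lowest for both, and the log2 fold changes were −4.50 (SE 0.38) and −4.17 (SE 0.34). The fatty acid binding protein *fabp11b* (ENSDARG00000002311) had 2249.5, 1834 and 2271 in the WT libraries and 194, 74.0 and 80.8 in the mutant libraries (log2 fold change −4.20, SE 0.32, adjusted p = 4.27e-05). At the other end, *filip1l* (ENSDARG00000037910), a filamin-interacting protein, had 1695, 2572 and 1598 in the WT libraries and 26598, 20567 and 28412 in the mutant libraries (log2 fold change 3.69, SE 0.21, adjusted p = 1.21e-05), and the membrane-binding annexin *anxa2a* was at 2.096 (SE 0.20).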

How the data were processed

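RNA-seq of whole zebrafish larvae gave the deposited counts, whole numbers per Ensembl gene that the authors made without normalization. The labels name Salmon and build GRCz10, and the methods of the study name STAR for alignment, so the counter is not settled, and the whole numbers may be rounded estimates. No row without a gene was used. Groups came from the labels. The study's methods state that the embryos came from 3 independent clutches, but no source ties a replicate number to a clutch.

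The 6 vehicle libraries were fitted with edgeR 4.0.16 in R 4.3.3 (TMM factors, filterByExpr, quasi-likelihood test, Benjamini-Hochberg adjustment), and calls required 2-fold changes as well as adjusted p-values below 0.05. Normalized counts are counts over the TMM-scaled total, times 75043438.5, and standard errors were taken from the fold change and its F statistic. An exact test of 3 against 3 libraries cannot go below p = 0.1. The scripts were tested on simulated data. DESeq2 1.42.0 (with limma 3.58.1 installed for edgeR) was an alternative. Size factors by the DESeq2 method or by upper quartiles were tried too, as were omitting the filter, requiring 10 counts per library, blocking on replicate number, fitting all 12 libraries, calling by adjusted p alone, and dropping libraries singly.

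Replicate numbers are shared between the groups. Mutant and WT vehicle libraries of the same number deviated together from their group means (correlations 0.25, 0.34 and 0.24), all above 0.1. The numbers were therefore taken to pair the libraries, on the data and not on a label. The main fit had no term for these pairs, so its values and calls are unpaired. Blocking on replicate number was an alternative.

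Symbols came from the study's supplementary gene tables for 1743 and 205 genes and from the Ensembl name table for 20992, which also gave list membership. The lists and the genes described were chosen with earlier results of these data known. The genes named were drawn from a set fixed by rule, and not all genes of the set are given. The set held *apc* and the 20 highest and 20 lowest fold changes at a mean of at least 100 counts. It also held the 15 largest count changes in each direction. Each list gave up to 5 called genes per direction at that mean, and the first 3 listed that were tested. Families of genes with the same leading letters in their symbols were ranked by the share called, and each top family gave its 3 largest called folds. Of the genes given, *col6a4a*, *col7a1*, *col4a3*, *msgn1*, *cdx4*, *her11*, *cyp8b1*, *runx1*, *zdhhc8a*, *setd9*, *opn1mw2*, *cnga3b*, *cngb1a*, *npas4a*, *fsta*, *nog2*, *vwf* and *stc2b* fall outside that rule and were chosen after their values were seen.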

Additional observations from a re-analysis of the deposited data

How the results depend on the processing

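The counts of 905 higher and 870 lower genes stayed within 1.5 times of these values under every alternative but the lack of a fold minimum, which gave 3305 higher and 3028 lower genes. Leaving out each library in turn gave 821 to 1008 higher and 688 to 970 lower genes, and 1448 to 1625 of the 1775 calls were shared. With the replicate number as a block there were 929 higher and 931 lower genes, and 1756 calls were shared. DESeq2 gave 899 higher and 847 lower genes. Of 181 genes given with values, 176 kept their call and direction under all 14 alternatives, apart from calls gained by dropping the fold minimum. Such gained calls, like that of *apc*, were not counted as changes here. *cyp8b1*, *runx1* and *pth1a* could not be tested with at least 10 counts in every library and kept both under the others. The remaining exceptions were the keratin *krtt1c19e*, lost without WT replicate 3, and the globin *hbae1.1*, not called in any, whose log2 fold change ran from −0.58 to 0.18 with single libraries left out. Of 150 list counts, 123 moved by over 1.5 times in at least 1 alternative, and many of these counts are small. With 3 libraries a group, genes at low counts and changes near 2-fold are the least settled.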
